A study of Mus musculus with 16 samples.

Results

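The genes described here are 10 feedback targets and inhibitors of the Wnt/beta-catenin pathway: Glul, Tbx3, Sp5, Notum, Wif1, Rnf43, Znrf3, Lgr5, Axin2 and Nkd1. They were taken by gene name, and all 10 were found among the 24421 genes counted. Messenger RNA of whole mouse liver had been sequenced in 16 libraries that formed 4 groups of 4. DKO livers carried ARID1A f/f and ARID1B f/f alleles and were Alb-Cre+, and their controls carried the same floxed alleles and were Alb-Cre-. BKO livers carried ARID1B f/f alleles alone and were Alb-Cre+, with Alb-Cre- controls. ARID1A and ARID1B take each other's place in the BAF chromatin remodelling complex, and Alb-Cre is a recombinase transgene driven by the albumin promoter, which is active in hepatocytes. Deletion and Cre went together in both experiments, no group had lost ARID1A alone, and the sources used here gave no ages.

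Wnt ligands bind Frizzled receptors and Lrp5 or Lrp6, which stops the Axin-Apc-Gsk3 complex from degrading beta-catenin. Beta-catenin then enters the nucleus and activates genes with TCF and LEF proteins, and several of its target genes encode brakes on the same pathway, so their mRNA is widely used as a readout of signalling. In the liver lobule the signal is strongest around the central vein, where endothelial cells supply Wnt2, Wnt9b and the R-spondin Rspo3, and where hepatocytes make glutamine synthetase.

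Upstream sequence was on file for 6 of the 10 genes, as 7 RefSeq promoter windows on GRCm38.p6, and the 250 bases before each start were searched on both strands for 4 TCF/LEF motifs, which were the motif CTTTGAA, the motif CTTTGAT, the motif CTTTGTA and the motif CTTTGTT. The starts are those of RefSeq, and by the GENCODE coordinates given below both Rnf43 windows and the Nkd1 window lie inside their genes. Of the windows of Glul, Axin2, Rnf43, Sp5, Nkd1 and Wif1, that of Sp5 alone held a match, and 14.8% of 32851 mouse promoter windows held at least 1. The windows below are those of Glul, which fell most in absolute level, of Sp5, which held the matches, and of Wif1, which was read in DKO livers and in no DKO control; the Wif1 window is printed without its bases from the GENCODE gene start onward, as 206 of the 250 bases searched. The capitals in the Sp5 window mark CTTTGTT on the minus strand, printed as its reverse complement, 222 bases before the start, and CTTTGAT on the plus strand, 104 bases before it. These 2 matches do not overlap. All 3 sequences are of the plus strand, 5′ to 3′, at chr1:153899679-153899928 for Glul, chr2:70474673-70474922 for Sp5 and chr10:121033754-121033959 for Wif1.
Glul: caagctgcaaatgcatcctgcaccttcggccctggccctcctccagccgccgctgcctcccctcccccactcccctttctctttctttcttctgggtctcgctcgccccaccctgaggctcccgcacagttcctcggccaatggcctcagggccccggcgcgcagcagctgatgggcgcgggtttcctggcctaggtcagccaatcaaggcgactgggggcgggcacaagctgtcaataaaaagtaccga
Sp5: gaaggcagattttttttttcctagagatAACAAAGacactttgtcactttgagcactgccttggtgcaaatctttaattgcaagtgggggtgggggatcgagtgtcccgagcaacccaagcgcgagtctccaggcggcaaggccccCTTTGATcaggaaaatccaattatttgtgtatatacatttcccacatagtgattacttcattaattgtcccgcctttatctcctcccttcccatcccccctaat
Wif1: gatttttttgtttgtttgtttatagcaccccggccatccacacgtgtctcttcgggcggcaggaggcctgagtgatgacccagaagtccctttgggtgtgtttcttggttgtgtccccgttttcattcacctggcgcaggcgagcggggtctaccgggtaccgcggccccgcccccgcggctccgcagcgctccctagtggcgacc

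Values are CPM, the usual scale of a gene's count over its library's total, with totals scaled by the library factors of edgeR's TMM method, listed in the order DKO-7068, DKO-7070, DKO-7112, DKO-7137 and WT-7067, WT-7069, WT-7114, WT-7139. A gene was called where the edgeR quasi-likelihood test gave a Benjamini-Hochberg adjusted p under 0.05 over all genes tested. Libraries held 8699417 to 11031443 counts in the experiment with DKO livers and 21151726 to 40551934 counts in that with BKO livers. The targeted genes were read first: Arid1b had 40.1 to 48.4 CPM in BKO livers, against 81.9 to 86.5 CPM in BKO controls (log2 fold change -0.94, SE 0.09, edgeR adjusted p = 0.00154). In DKO livers Arid1b had 55.4, 61.4, 78.0 and 45.4 CPM, against 80.7, 82.0, 97.2 and 97.3 CPM in DKO controls (log2 fold change -0.57, SE 0.16, edgeR adjusted p = 0.0167), a call that ended without DKO-7068 (adjusted p = 0.0515) or under total-count scaling (0.091). Arid1a did not pass in DKO livers (by edgeR, log2 fold change -0.20, SE 0.10, adjusted p = 0.149), and since counts cover whole genes the floxed exons were not read separately. DKO-7068 and DKO-7070 were closer to each other than any other DKO pair, by a chi-square per degree of freedom of 6.92 against 32.8 to 56.1, so results are also given with both summed into 1 library where that changed a call.

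In DKO livers the pathway's feedback genes split. Of the 10, 6 fell (Glul, Tbx3, Notum, Rnf43, Znrf3 and Nkd1), 1 rose (Wif1) and 3 did not pass (Axin2, Lgr5 and Sp5). Over all 12848 genes tested in that experiment 35.8% were called, 19.2% higher and 16.6% lower in DKO livers. For 7 of the 10 the groups did not overlap, as for 35.4% of all genes tested. The median log2 fold change of the 10 genes was -0.70, beside 0.02 over all genes tested. In BKO livers 0 of the 9 genes tested were called, where the background was 0.583% of 14061 genes. Of the 9, 1 had an unadjusted edgeR p under 0.05, and DESeq2 called 0 of 10. With total counts alone 72.0% of the DKO calls were higher in DKO livers, against 53.6% with TMM scaling, and 1 of the 10 genes rose and 3 fell.

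Glul encodes glutamine synthetase, the enzyme that joins ammonia to glutamate in the hepatocytes next to the central vein, and lies at chr1:153899944-153909723 on the plus strand (GRCm38). It had 189, 232, 257 and 140 CPM in DKO livers, against 880, 1017, 877 and 919 CPM in DKO controls. Each DKO library was far below each control, and the lowest was DKO-7137. The means were 204 ± 51.5 CPM in DKO livers and 923 ± 65.2 CPM in DKO controls (SD, n = 4 each), a 4.52-fold fall (log2 fold change -2.18, SE 0.19, edgeR adjusted p = 2.87e-05). In BKO livers Glul had 647, 740, 774 and 648 CPM in F1, F3, F4 and F6, against 803, 722, 892 and 883 CPM in the controls F2, F5-2, F5 and F7. These groups overlapped, and the difference did not pass (log2 fold change -0.23, SE 0.11, edgeR adjusted p = 0.424), although its unadjusted p was 0.0485.

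Tbx3 encodes a T-box transcription factor that beta-catenin activates in liver, and lies at chr5:119670669-119684724 on the plus strand. It had 5.09, 5.85, 5.32 and 4.46 CPM in DKO livers, against 34.9, 37.6, 51.4 and 31.3 CPM in DKO controls. The 4 DKO libraries lay within a narrow band below every control. The fall was 7.49-fold by the means (log2 fold change -2.90, SE 0.18, edgeR adjusted p = 3.55e-06). Its level in BKO livers was 20.4, 45.8, 21.8 and 30.4 CPM, against 42.9, 70.5, 38.2 and 34.5 CPM in BKO controls. F3 lay above 3 of the 4 controls, the groups overlapped, and the change did not pass (log2 fold change -0.65, SE 0.33, edgeR adjusted p = 0.511).

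Sp5, a zinc-finger transcription factor and direct Wnt target that represses other Wnt targets, lies at chr2:70474923-70477729 on the plus strand and was the lowest of the 10 in counts among those read in every library. It had 2.05, 0.900, 1.19 and 0.725 CPM in DKO livers, against 2.46, 1.15, 3.48 and 0.883 CPM in DKO controls, which rest on 7 to 25 and 7 to 31 counts per library. The groups overlapped, and their lowest libraries were close. The difference did not pass (log2 fold change -0.68, SE 0.48, edgeR adjusted p = 0.304). In BKO livers Sp5 had 1.18, 3.44, 1.34 and 2.09 CPM, against 1.15, 1.15, 1.06 and 1.64 CPM in BKO controls, with F3 highest (log2 fold change 0.71, SE 0.36, edgeR adjusted p = 0.494).

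**Figure D1:**
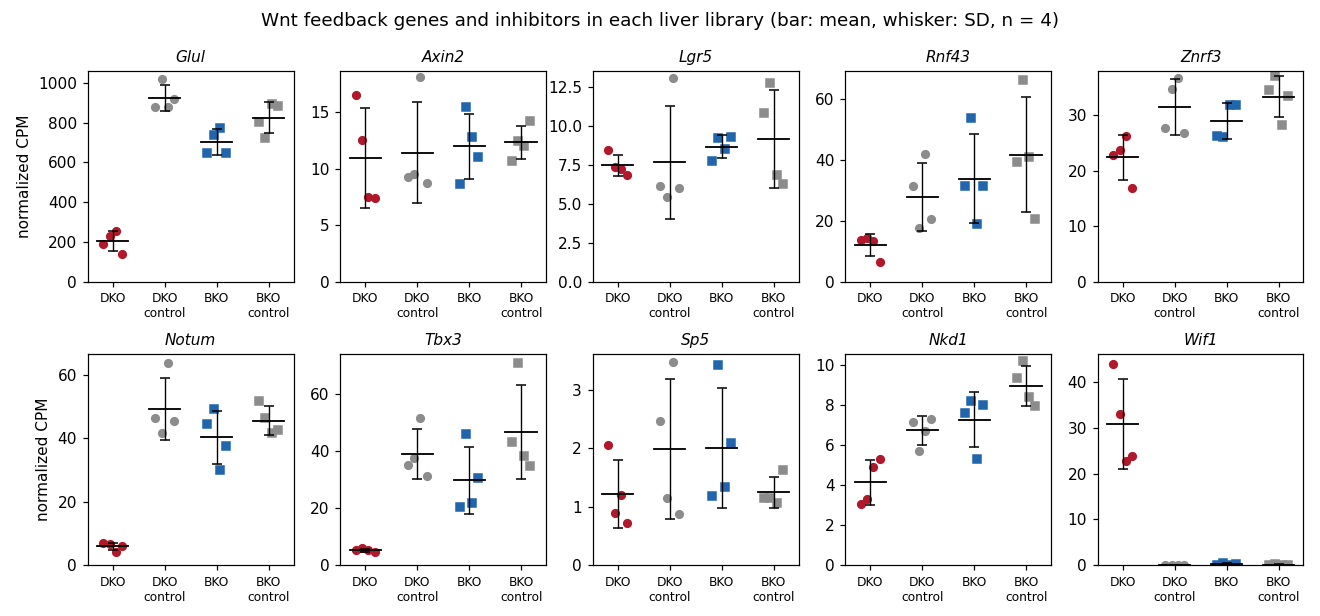
Normalized CPM (vertical axes, linear and from 0) of the 10 genes in each of the 16 libraries, by group; points are libraries, the bar is the mean and the whisker the SD over n = 4. The DKO points of Glul, Notum and Tbx3 lie far below the other 3 groups, Wif1 is above 22 CPM in DKO libraries alone, and the Axin2 and Lgr5 points of each knockout overlap those of its controls.

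Among the secreted inhibitors, Notum and Wif1 moved in opposite directions. Notum is a carboxylesterase that strips the lipid from Wnt ligands, and lies at chr11:120653788-120661175 on the minus strand. It had 6.82, 6.57, 4.23 and 6.01 CPM in DKO livers, against 46.6, 41.6, 63.7 and 45.7 CPM in DKO controls. The groups did not come near each other (log2 fold change -3.05, SE 0.19, edgeR adjusted p = 3.52e-06). In BKO livers Notum had 44.4, 49.2, 30.2 and 37.5 CPM, against 51.8, 46.5, 41.8 and 42.7 CPM in BKO controls. F1 and F3 lay within the control range and F4 and F6 below it, and the difference did not pass (log2 fold change -0.18, SE 0.14, edgeR adjusted p = 0.689).

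Wif1, a secreted protein that binds Wnt ligands and keeps them from their receptors, lies at chr10:121033960-121100650 on the plus strand. It had 535, 366, 210 and 230 counts in DKO livers (43.9, 32.9, 22.8 and 23.8 CPM) and 0 counts in all 4 DKO controls. A total of 3 counts over the control group, the limit that 0 counts allows, equals 0.0828 CPM, so Wif1 was at least 373-fold higher in DKO livers, at 30.9 ± 9.83 CPM (SD, n = 4; edgeR adjusted p = 2.79e-05). The floor covers counting error only. Wif1 passed the count filter through its DKO libraries alone, 4 of which lay above the filter's 1.04 CPM against 0 of the controls, so its call rests on the group where it was high. In BKO livers it had 1, 19, 0 and 9 counts, against 4, 4, 2 and 0 counts in BKO controls. These totals of 29 and 10 counts were too few to pass the filter. Without the filter the difference did not pass (log2 fold change 1.23, edgeR adjusted p = 0.748).

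Rnf43 and Znrf3 are related membrane E3 ubiquitin ligases that mark Frizzled receptors for removal and so lower the response to Wnt. Rnf43 lies at chr11:87662722-87735539 on the plus strand and Znrf3 at chr11:5276324-5444847 on the minus strand. Rnf43 had 13.7, 14.2, 13.5 and 6.53 CPM in DKO livers, against 31.4, 17.8, 42.1 and 20.4 CPM in DKO controls. Every DKO library was below every control, although WT-7069 and WT-7139 were closer to DKO-7070 than to WT-7114. The fall was 2.33-fold (log2 fold change -1.21, SE 0.32, edgeR adjusted p = 0.0165). Znrf3 had 22.8, 23.8, 26.2 and 16.8 CPM in DKO livers, against 27.6, 34.6, 36.7 and 26.8 CPM in DKO controls. The groups did not overlap, but DKO-7112 and WT-7139 were nearly level. The fall was 1.41-fold (log2 fold change -0.49, SE 0.16, edgeR adjusted p = 0.0333). Its call ended in 5 of 8 refits that left out 1 library (DKO-7068, DKO-7070, DKO-7137, WT-7069 or WT-7114), where the adjusted p reached 0.0872. With scaling by total counts alone Rnf43 and Znrf3 were both not called (adjusted p = 0.0501 and 0.225), and with DKO-7068 and DKO-7070 summed Znrf3 was not called (0.0588). In BKO livers Rnf43 had 31.6, 53.8, 18.8 and 31.3 CPM, against 39.3, 66.2, 40.9 and 20.4 CPM in BKO controls. Znrf3 had 26.2, 26.0, 31.8 and 31.8 CPM in BKO livers, against 34.5, 36.9, 28.2 and 33.4 CPM in BKO controls. Both overlapped between groups and did not pass (edgeR adjusted p = 0.854 and 0.541).

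Lgr5, a receptor for R-spondins that holds Rnf43 and Znrf3 in check when R-spondin is bound, lies at chr10:115450311-115587780 on the minus strand. It had 8.46, 7.38, 7.27 and 6.84 CPM in DKO livers, against 6.16, 5.44, 13.1 and 6.06 CPM in DKO controls. The DKO libraries lay between WT-7114 and the other 3 controls. No change was called (log2 fold change -0.04, SE 0.27, edgeR adjusted p = 0.934). In BKO livers Lgr5 had 7.75, 9.23, 8.52 and 9.29 CPM, against 10.9, 12.8, 6.86 and 6.27 CPM in BKO controls, again with the knockouts inside the control range (log2 fold change -0.08, SE 0.21, edgeR adjusted p = 0.926).

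Axin2 and Nkd1 act inside the cell. Axin2 is a scaffold of the complex that degrades beta-catenin, is the target most often used as a general Wnt readout, and lies at chr11:108920349-108950783 on the plus strand. It had 16.5, 12.5, 7.49 and 7.36 CPM in DKO livers, against 9.29, 9.55, 18.1 and 8.71 CPM in DKO controls. DKO-7068 and DKO-7070 lay above 3 of the 4 controls, and DKO-7112 and DKO-7137 below all of them. The groups did not differ beyond their spread (log2 fold change -0.05, SE 0.32, edgeR adjusted p = 0.925). In BKO livers Axin2 had 8.63, 15.4, 12.8 and 11.1 CPM, against 10.6, 12.4, 11.9 and 14.2 CPM in BKO controls (log2 fold change -0.03, SE 0.17, edgeR adjusted p = 0.971).

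Nkd1, a protein that binds Dishevelled and dampens the signal, lies at chr8:88521354-88594884 on the plus strand. It had 3.04, 3.33, 4.88 and 5.28 CPM in DKO livers, against 7.17, 5.73, 6.73 and 7.32 CPM in DKO controls. All 4 DKO libraries were below the controls, DKO-7137 by the least. The fall was 1.63-fold (log2 fold change -0.71, SE 0.22, edgeR adjusted p = 0.028). Its call ended in 5 of 8 refits (without DKO-7068, DKO-7070, WT-7067, WT-7114 or WT-7139), where the adjusted p reached 0.071, with total counts (0.0598) and with DKO-7068 and DKO-7070 summed (0.0625). In BKO livers Nkd1 had 7.60, 8.21, 5.28 and 8.02 CPM, against 9.35, 10.2, 8.39 and 7.95 CPM in BKO controls, which overlapped (log2 fold change -0.30, SE 0.17, edgeR adjusted p = 0.534).

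**Figure D2:**
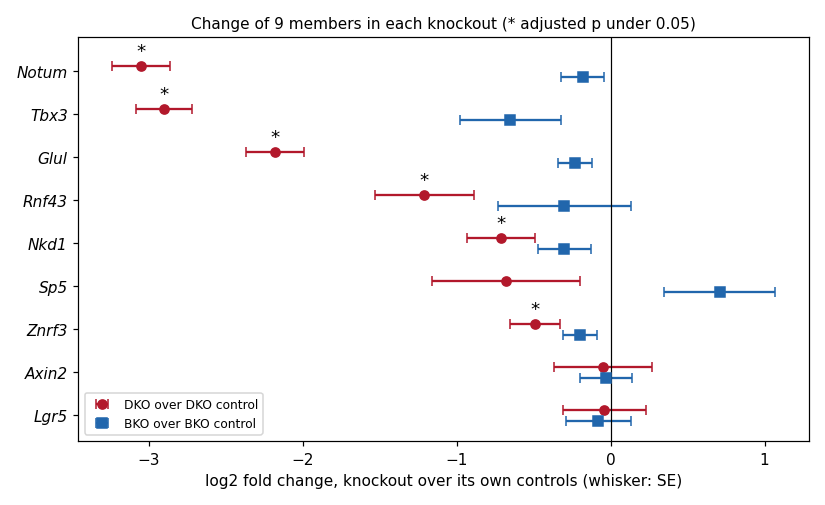
Log2 fold change (horizontal axis) of 9 genes in each knockout over its own controls, ordered from the lowest DKO value down the page; circles are DKO, squares BKO, whiskers the SE, and stars mark an adjusted p under 0.05. Wif1 is left out because it was at 0 in the DKO controls; 6 DKO values carry a star and lie between -3.05 and -0.49, and no BKO value carries one.

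The order of the genes by level was set out per kilobase of exon, as mean CPM per kb. In DKO livers Glul was highest at 61.5, followed by Wif1 at 12.7, Znrf3 at 2.83 and Notum at 2.45 CPM per kb. In DKO controls the order was Glul at 278, Notum at 20.5, Tbx3 at 5.86 and Rnf43 at 4.26 CPM per kb, with Wif1 last at 0. Tbx3 and Rnf43 are neighbours that did not differ beyond their spread, since Tbx3 ran from 4.72 to 7.76 and Rnf43 from 2.71 to 6.42 CPM per kb. Wif1 stood second in DKO livers, the place that Notum held in DKO controls, in BKO livers (16.8 CPM per kb) and in BKO controls (19.0 CPM per kb). Lgr5, Sp5 and Nkd1 lay under 2 CPM per kb in all 4 groups.

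Axin2 averaged 11.0 ± 4.40 CPM in DKO livers and 11.4 ± 4.45 CPM in DKO controls (SD, n = 4 each), and the counts of the other genes were also divided by the Axin2 count of the same library, a ratio that needs no scaling factor. It was chosen after the values had been seen and carries no test. Notum had 0.413, 0.525, 0.565 and 0.817 counts per Axin2 count in DKO livers, against 5.01, 4.36, 3.53 and 5.25 in DKO controls. Tbx3 had 0.308, 0.468, 0.710 and 0.606 per Axin2 count in DKO livers, against 3.76, 3.94, 2.84 and 3.59 in DKO controls. Both ratios were far lower in each DKO library than in any control, and WT-7114, the highest control in CPM for both genes, was the lowest control by this ratio. Lgr5 had 0.512, 0.590, 0.971 and 0.930 per Axin2 count in DKO livers, against 0.663, 0.570, 0.727 and 0.696 in DKO controls. Wif1 had 2.66, 2.63, 3.04 and 3.24 per Axin2 count in DKO livers, so its 4 DKO libraries lay closer together by this ratio than in CPM. Glul and Rnf43 also had lower ratios in every DKO library than in any control, at 11.4 to 34.3 in DKO livers and 48.5 to 106 in DKO controls for Glul, and at 0.831 to 1.80 in DKO livers and 1.86 to 3.37 in DKO controls for Rnf43. Znrf3 and Nkd1, whose groups did not overlap in CPM, overlapped by this ratio. Znrf3 had 1.38 to 3.49 in DKO livers and 2.03 to 3.63 in DKO controls, and Nkd1 had 0.184 to 0.718 in DKO livers and 0.373 to 0.841 in DKO controls. The Sp5 ratios overlapped too.

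**Figure D3:**
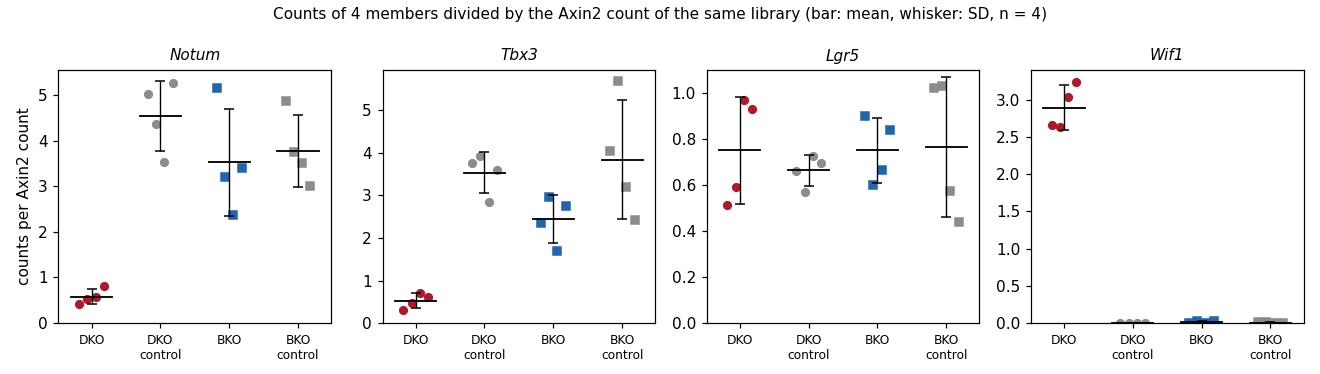
Counts of Notum, Tbx3, Lgr5 and Wif1 divided by the Axin2 count of the same library (vertical axes, linear and from 0) in the 4 groups; points are libraries, the bar is the mean and the whisker the SD over n = 4. The Notum and Tbx3 ratios of DKO libraries lie below 1 and those of the other groups above it, while the Lgr5 ratios overlap in all groups.

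The tags of the DKO experiment fell into a 70 and a 71 range, and no source used here says what these stand for. Within each range, 2 DKO libraries were set against 2 controls. The log2 ratio of the means was -2.17 and -2.18 for Glul, -2.72 and -3.42 for Notum and -2.73 and -3.08 for Tbx3 in the 70 and 71 ranges. It was lower than 0 in both ranges for Rnf43 (-0.81 and -1.64), Znrf3 (-0.42 and -0.56) and Nkd1 (-1.02 and -0.47) as well. Axin2 went opposite ways, with a log2 ratio of 0.62 in the 70 range and -0.85 in the 71 range, and so did Lgr5, with 0.45 and -0.44. For Axin2 the means were 14.5 CPM in DKO livers and 9.42 CPM in DKO controls of the 70 range, and 7.42 CPM in DKO livers and 13.4 CPM in DKO controls of the 71 range. These within-range values rest on 2 libraries a side and were not tested. With the tag range as a batch term, the same 7 genes were called.

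The change of each gene in DKO livers was then tested against its change in BKO livers, each taken over its own controls, in 1 model of all 16 libraries. The difference passed for 4 of the 10 genes, 3 lower and 1 higher in DKO livers, where 22.5% of 14050 genes were called, 11.5% lower and 11.0% higher. The log2 difference was -2.91 for Notum (SE 0.24, edgeR adjusted p = 5.89e-07), -2.28 for Tbx3 (SE 0.39, adjusted p = 0.000759) and -1.98 for Glul (SE 0.22, adjusted p = 1.25e-05). Wif1 also differed (edgeR adjusted p = 0.00367), with a fitted log2 difference of 10.83 that depends on the prior count because the DKO controls held none. It was kept for this test through its DKO libraries, so this call too rests on the group where it was high. For Rnf43, Znrf3 and Nkd1, which were called in DKO livers and not in BKO livers, the difference itself did not pass (log2 difference -0.95, -0.32 and -0.44, SE 0.57, 0.20 and 0.27, edgeR adjusted p = 0.257, 0.265 and 0.267). Sp5 had a log2 difference of -1.43 (SE 0.63, edgeR adjusted p = 0.116), Axin2 of -0.05 (SE 0.38, adjusted p = 0.951) and Lgr5 of 0.02 (SE 0.37, adjusted p = 0.982).

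The rest of the pathway was followed through lists by role. Of 21 genes for Wnt ligands and their lipidation and secretion, 8 were tested in DKO livers, where 2 rose, 2 fell and 4 did not pass (median log2 fold change -0.13), beside 35.8% called over all genes. Wnt2, a ligand of central vein endothelium, had 0.739, 1.53, 1.19 and 1.45 CPM in DKO livers, against 2.80, 2.86, 4.71 and 2.40 CPM in DKO controls (log2 fold change -1.38, SE 0.33, edgeR adjusted p = 0.00787). Porcn, the acyltransferase that lipidates Wnt ligands, averaged 1.40 ± 0.254 CPM in DKO livers and 4.45 ± 1.78 CPM in DKO controls (log2 fold change -1.67, SE 0.34, edgeR adjusted p = 0.00319). Both were lower in every DKO library than in any control. Wnt9b, the other ligand of central vein endothelium, named after its values had been seen, averaged 1.69 CPM in DKO livers and 1.86 CPM in DKO controls. Its change did not pass (log2 fold change -0.15, SE 0.32, edgeR adjusted p = 0.752). Wnt5a, a ligand known mostly for signalling without beta-catenin, had 13.1, 11.3, 5.21 and 5.28 CPM in DKO livers, against 1.68, 1.72, 2.24 and 1.14 CPM in DKO controls (log2 fold change 2.36, SE 0.37, edgeR adjusted p = 0.000797). DKO-7068 and DKO-7070 were the highest for Wnt5a, as they were for Wif1 and Axin2. Wls, the carrier of Wnt ligands to the cell surface, rose as well (log2 fold change 1.04, SE 0.25, edgeR adjusted p = 0.00919), though its groups overlapped. In BKO livers edgeR and DESeq2 both called 0 genes of this list, of 9 and 13 tested, and 2 had an unadjusted edgeR p under 0.05. The difference between the knockouts passed for Wnt5a (2.44, SE 0.57, adjusted p = 0.00553), Wnt5b (-1.12, SE 0.31, adjusted p = 0.0159) and Porcn (-1.59, SE 0.47, adjusted p = 0.0218; ended without DKO-7068 or WT-7069, adjusted p up to 0.0518) but not for Wnt2 (-0.81, SE 0.39, adjusted p = 0.151). Wnt5b itself passed in neither knockout, with a log2 fold change of -0.42 in DKO livers and 0.67 in BKO livers (edgeR adjusted p = 0.0952 and 0.276).

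Of 21 R-spondin and receptor genes, 13 were tested in DKO livers, where 2 rose, 3 fell and 8 did not pass (median log2 fold change -0.08), a share of calls near the 35.8% over all genes. Rspo3, which binds Lgr receptors and clears Rnf43 and Znrf3 from the membrane, had 3.78, 2.61, 3.04 and 3.52 CPM in DKO livers, against 3.81, 6.40, 5.95 and 5.43 CPM in DKO controls. WT-7067 was level with the highest DKO library (by edgeR, log2 fold change -0.74, SE 0.23, adjusted p = 0.027), and the call ended without DKO-7070, WT-7069 or WT-7114. Fzd4, a Frizzled receptor, averaged 24.4 ± 3.10 CPM in DKO livers and 36.0 ± 7.93 CPM in DKO controls (log2 fold change -0.56, SE 0.16, edgeR adjusted p = 0.0205; ended without WT-7114, adjusted p = 0.0514), and Ryk, a co-receptor, fell by 0.28 on the log2 scale (adjusted p = 0.0379; ended in 5 of 8 refits). With total counts alone Fzd4, Rspo3 and Ryk were not called (adjusted p = 0.162, 0.0991 and 0.61), and 2 genes of the list rose with 0 that fell. Fzd3, another Frizzled receptor, rose (log2 fold change 1.34, SE 0.36, edgeR adjusted p = 0.0143; ended without DKO-7068, adjusted p = 0.0515); it passed the filter through its DKO libraries, and its controls averaged 0.832 CPM. In BKO livers edgeR and DESeq2 both called 0, of 13 and 17 tested, and 1 had an unadjusted edgeR p under 0.05.

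Among the other secreted or membrane inhibitors, most were too low to be tested, and the few called in DKO livers rose, as Wif1 did. Of 16 genes, 4 passed the count filter in the DKO experiment, and 3 rose, 0 fell and 1 did not pass. Over all genes tested there 35.8% were called, 19.2% higher. Dkk3, a Dickkopf relative whose action on Wnt varies with context, had 12.1, 18.9, 12.5 and 9.84 CPM in DKO livers, against 2.35, 2.48, 2.47 and 1.77 CPM in DKO controls (log2 fold change 2.54, SE 0.24, edgeR adjusted p = 4.09e-05). Frzb, a secreted Frizzled-related protein that binds Wnt ligands, had 14.4, 19.2, 12.8 and 13.5 CPM in DKO livers, against 1.90, 2.29, 1.12 and 2.27 CPM in DKO controls (log2 fold change 2.97, SE 0.24, edgeR adjusted p = 1.59e-05). Sfrp1, of the same family, had 7.55, 27.5, 8.47 and 7.77 CPM in DKO livers, against 1.90, 0.859, 0.673 and 1.26 CPM in DKO controls (log2 fold change 3.45, SE 0.57, edgeR adjusted p = 0.0016). Sfrp1 lay above the filter's 1.04 CPM in 2 of the 4 controls, so it passed the filter through its DKO libraries. All 3 were higher in every DKO library than in any control, and DKO-7070 was the highest for each; without it the log2 fold change of Sfrp1 was 2.73. In BKO livers 1 of 5 was called, beside 0.583% of all genes tested. It was Kremen1, a Dickkopf receptor, at 12.2 ± 1.24 CPM in BKO livers and 18.4 ± 0.652 CPM in BKO controls (by edgeR, log2 fold change -0.59, SE 0.11, adjusted p = 0.0358), and that call ended in all 8 refits that left out 1 library. The difference between the knockouts passed for Frzb (2.96, SE 0.34, adjusted p = 1.59e-05), Dkk3 (2.49, SE 0.33) and Sfrp1 (3.95, SE 0.65, adjusted p = 0.000429; 3.25 without DKO-7070).

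**Figure D4:**
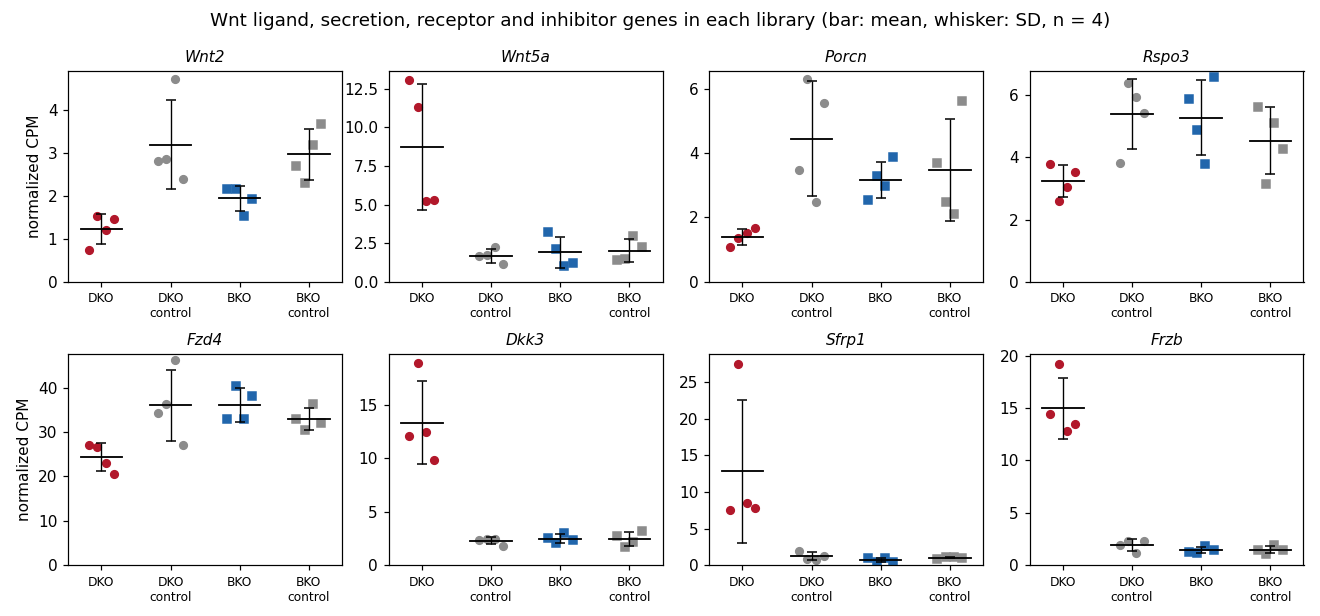
Normalized CPM (vertical axes, linear and from 0) of 8 pathway genes in each of the 16 libraries, by group; points are libraries, the bar is the mean and the whisker the SD over n = 4. Wnt2, Porcn, Rspo3 and Fzd4 are lower in DKO livers than in DKO controls and Wnt5a, Dkk3, Sfrp1 and Frzb higher, with 1 Sfrp1 library at 27.5 CPM.

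Few core genes of the pathway were called in DKO livers, beside 35.8% called over all genes. Of 17 genes of the destruction complex and its transducers, all tested, 1 rose, 1 fell and 15 did not pass (median log2 fold change -0.02). They summed to 1080 to 1150 CPM in DKO livers and 1090 to 1190 CPM in DKO controls. Dvl1, a Dishevelled protein, averaged 54.7 ± 3.82 CPM in DKO livers and 92.7 ± 4.11 CPM in DKO controls (by edgeR, log2 fold change -0.76, SE 0.09, adjusted p = 0.000191), and Csnk1e, a casein kinase, rose (0.86, SE 0.19, adjusted p = 0.00511). Ctnnb1, beta-catenin itself, named after its values had been seen, averaged 222 CPM in DKO livers and 214 CPM in DKO controls (log2 fold change 0.05, edgeR adjusted p = 0.732). Of 15 TCF/LEF and cofactor genes 13 were tested, 0 rose and 1 fell, the corepressor Tle1 (log2 fold change -0.62, SE 0.17, edgeR adjusted p = 0.0154). The Tle1 groups overlapped, at 54.71 to 90.25 CPM in DKO livers and 89.68 to 113.6 CPM in DKO controls. Its difference between the knockouts did not pass (log2 difference -0.19, SE 0.29, edgeR adjusted p = 0.684). The 14 genes of this list that were found summed to 266 to 339 CPM in DKO livers and 343 to 415 CPM in DKO controls. Their sum was 271 to 300 CPM in BKO livers and 313 to 385 CPM in BKO controls. These sums were lower in each knockout without overlap and were not tested. In BKO livers edgeR and DESeq2 both called 0 of 17 destruction complex genes and 0 of 14 TCF/LEF and cofactor genes, with 0 of the 17 and 4 of the 14 at an unadjusted edgeR p under 0.05. Of 11 further Wnt targets described in other tissues, 6 were tested in DKO livers, where 2 rose and 0 fell, a share of calls near the 35.8% over all genes. They were Cd44, a cell surface glycoprotein (by edgeR, log2 fold change 1.33, SE 0.20, adjusted p = 0.000661), and Myc, a growth regulator (2.08, SE 0.67, adjusted p = 0.0451). The Myc groups overlapped, its call ended without DKO-7068, WT-7067, WT-7114 or WT-7139, and its log2 fold change was 3.08 without WT-7069. In BKO livers edgeR called 0 of 8 of these targets and DESeq2 1, and 4 had an unadjusted edgeR p under 0.05.

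Genes of the zone around the central vein were followed beside Glul. The list of 12 held enzymes, transporters, the receptors Nr1i3 and Ahr and the secreted protein Lect2. In DKO livers 10 fell, 0 rose and 2 did not pass (median log2 fold change -2.38), where 16.6% of all genes fell. Those that fell included Rhbg, an ammonium transporter of the same cells as Glul, at 1.31 ± 0.521 CPM in DKO livers and 11.5 ± 1.56 CPM in DKO controls (edgeR log2 fold change -3.16, SE 0.27, adjusted p = 2.12e-05), and Gulo, of ascorbate synthesis (log2 fold change -2.46, SE 0.15, adjusted p = 3.63e-06). In BKO livers 1 of the 12 fell, where 0.398% of all genes tested fell. It was Rhbg, at 3.28 ± 0.103 CPM in BKO livers and 7.52 ± 1.48 CPM in BKO controls (log2 fold change -1.20, SE 0.18, edgeR adjusted p = 0.0177; ended without F1, F2 or F6). In all, 6 of the 12 had an unadjusted edgeR p under 0.05 there, and DESeq2 called 2 higher and 3 lower. Cyp2a5 (log2 fold change -1.70, edgeR adjusted p = 0.0525) and Slc1a2 (-0.81, adjusted p = 0.0523) did not pass. Of 10 genes of the zone around the portal vein, 9 were tested in DKO livers, where 2 rose, 3 fell and 4 did not pass (median log2 fold change -0.38), beside 35.8% called over all genes. In BKO livers 1 of 10 fell, the cytochrome Cyp2f2 (log2 fold change -0.96, SE 0.11, edgeR adjusted p = 0.00392).

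Markers of other cells moved in the same libraries, where 35.8% of all genes tested were called, 19.2% higher and 16.6% lower. In whole liver, fewer cells of a type and less RNA per cell cannot be told apart. The summed level of 5 hepatocyte markers was 65600 to 93300 CPM in DKO livers and 117000 to 138000 CPM in DKO controls (0 rose, 3 fell), beside the falls of Glul, Tbx3 and Notum. Alb made up most of that sum, with 37320 to 66180 CPM in DKO livers and 90560 to 109100 CPM in DKO controls. Of the 3 that fell, Apoa1 lost its call in 6 of 8 refits that left out 1 library (edgeR adjusted p up to 0.0894). Beside the rises of Wif1, Dkk3, Frzb, Sfrp1 and Wnt5a, 8 stellate cell and fibroblast markers summed to 1590 to 2420 CPM in DKO livers and 411 to 578 CPM in DKO controls (5 rose, 1 fell). A set of 7 bile duct markers summed to 82.5 to 862 CPM in DKO livers and 36.0 to 57.5 CPM in DKO controls (1 of 3 tested rose). Spp1 made up most of that sum, with 63.5 to 837 CPM in DKO livers and 21.0 to 28.1 CPM in DKO controls. The 6 macrophage markers summed to 160 to 200 CPM in DKO livers and 129 to 204 CPM in DKO controls (4 rose, 0 fell; Trem2 passed the count filter through its DKO libraries alone, and Ccr2 lay above it in 2 of the 4 controls). The 5 cycling cell markers summed to 76.5 to 135 CPM in DKO livers and 14.3 to 18.1 CPM in DKO controls, and each was called higher, but Ccnb1 and Plk1 passed the count filter through their DKO libraries alone. Of the endothelial signals, Wnt2 fell, Rspo3 fell by a call that ended in 3 of 8 refits, and Wnt9b was not called. Beside these, 11 endothelial markers summed to 485 to 547 CPM in DKO livers and 468 to 574 CPM in DKO controls (3 rose, 1 fell). Of the 3 that rose, Pecam1 lost its call in 3 of 8 refits that left out 1 library and Thbd in 2 of 8. The share of endothelial markers called, like that of the bile duct markers tested, was near that over all genes. In these lists no marker was at 0 in a whole group. Their part in the results for the pathway genes was not tested. In BKO livers edgeR called 0 genes of these 6 lists and DESeq2 1, a bile duct marker. Of them 3 bile duct, 2 cycling cell and 1 hepatocyte marker had an unadjusted edgeR p under 0.05. The hepatocyte markers summed to 96400 to 118000 CPM in BKO livers and 90000 to 101000 CPM in BKO controls.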

How the data were processed

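Per the labels' protocols, liver RNA was taken with TRIzol, purified on RNeasy columns and made into libraries by the Nugen Ovation RNA-seq kit. The values the authors deposited are raw counts per gene, in 1 table per experiment. The tools, per the submitters' processing notes, were featureCounts 1.6.2, HISAT2 2.1.0 and Trim Galore 0.4.1, and the builds GRCm38, mm10 and GRCh38 stand there without roles. Annotation and strand setting are not given in sources used here. By GENCODE M21, 7 of the 10 genes overlap another gene (Glul, Axin2, Lgr5, Rnf43, Notum, Tbx3 and Nkd1), 6 of them on the opposite strand (all but Nkd1). Overlap was taken over whole gene spans, not exons, so whether reads of the partners entered these counts is not known. Coordinates and exon lengths are from GENCODE M21 (GRCm38), and promoters from RefSeq.

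Samples were grouped by genotype, and 0 columns were left without a sample. That libraries came from separate animals rests on their tags; 2 BKO controls were labelled F5 and F5-2, and p-values may measure technical spread where tags share an animal. Counts were tested with edgeR 4.0.16 in R 4.3.3 (filterByExpr, TMM, robust quasi-likelihood), within each experiment and, for the difference, over 16 libraries and 24394 genes, without 27 BKO names turned into dates. The adjusted p threshold was 0.05, and the SE is the log2 fold change over the square root of F. The 10 genes and all lists were chosen with earlier results of these data known. Besides the 10 and Arid1a and Arid1b, up to 4 called genes per list by smallest p could be named. Alternatives were DESeq2 1.42.0 size factors or Wald test, total counts, no filter, at least 1 CPM in 4 libraries, the tag range as a batch, F5 libraries summed, DKO-7068 and DKO-7070 summed (added after the data were seen) and each library left out. In simulated data, 67 genes were changed 1.5-fold, 67 were changed 2-fold and 66 were changed 4-fold. A DKO fit over 12848 genes recovered 19.4% of genes changed 1.5-fold and 49.3% of those changed 2-fold, with 8.55% of its calls false. A BKO fit over 14061 genes recovered 28.4% at 1.5-fold and 67.2% at 2-fold, with 6.11% false, and a fit of the difference over 14050 genes recovered 8.96% at 1.5-fold and 26.9% at 2-fold, with 3.85% false. Far fewer genes were changed there than the 4604 called in DKO livers or the 3162 called in the difference. The Benjamini-Hochberg cutoff depends on that number, so these shares need not hold for the real DKO and difference fits.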

Additional observations from a re-analysis of the deposited data

Results flagged for a closer look

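Of 40 groups of 4 libraries examined, 4 held a library far from the other 3, where chance alone would flag about 1 in 20. In the DKO controls WT-7114 stood apart for Axin2, with 18.1 CPM against 8.71 to 9.55 CPM in the other 3, and for Lgr5, with 13.1 CPM against 5.44 to 6.16 CPM. In DKO livers DKO-7137 stood apart for Rnf43, with 6.53 CPM against 13.5 to 14.2 CPM. Among the BKO controls F7 stood apart for Sp5, with 1.64 CPM against 1.06 to 1.15 CPM.

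The change in DKO livers differed from that in BKO livers, by the test of the difference itself over 16 libraries, for 4 of the 10 genes. The log2 difference was -1.98 for Glul, -2.91 for Notum, -2.28 for Tbx3 and 10.83 for Wif1. The last of these depends on the prior count and rests on the group where Wif1 was high. Glul, Notum and Tbx3 were lower in 4 of 4 DKO libraries than in any DKO control, while their BKO groups overlapped.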

How the results depend on the processing

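The calls of Glul, Notum, Tbx3 and Wif1 in DKO livers, and of their difference from BKO livers, were kept under every alternative run. For Wif1 both calls rest on the DKO libraries, where it was high. Total counts put the median log2 change of all genes at 0.20 in DKO livers and 0.27 in the difference, beside 0.02 and -0.01 as reported, and moved the share of calls that were higher to 72.0%, from 53.6% as reported, in DKO livers, to 20.4%, from 31.7%, in BKO livers and to 77.9%, from 49.1%, in the difference. Relative to the median of all genes under that scaling the 6 lower genes of DKO livers lay between -3.06 (Notum) and -0.50 (Znrf3). Its log2 changes turned sign for Axin2 (0.16) and Lgr5 (0.15) in DKO livers, Axin2 in the difference (0.25) and Arid1a in BKO livers (-0.01), but relative to that median Axin2 and Lgr5 lay at -0.04 and -0.05 in DKO livers and Axin2 at -0.02 in the difference; with DKO-7068 and DKO-7070 summed Lgr5 turned in the difference (-0.01). None of these was called. Leaving out 1 library gave ranges across 0 for Axin2 (-0.33 to 0.25) and Lgr5 (-0.18 to 0.34) in DKO livers, Axin2 (-0.18 to 0.09), Lgr5 (-0.23 to 0.12) and Rnf43 (-0.62 to 0.01) in BKO livers, and Axin2 (-0.31 to 0.26) and Lgr5 (-0.18 to 0.40) in the difference. DKO livers had 4604 genes called (3840 to 5235 under the alternatives). BKO livers had 82, with 344 by DESeq2, which called 0 of the 10 genes, and 17 to 104 with 1 library left out: 17 without F1, 31 without F2, 40 without F3, 29 without F6 and 51 without F7. In BKO livers 1 of the 9 genes tested had an unadjusted edgeR p under 0.05. The cause of these shifts was not tested. Counts were lowest for Wif1, at 0 in every DKO control and at 0 to 19 in BKO livers and their controls. The low BKO counts kept Wif1 from being tested in that experiment. Sp5 was next, at 7 to 31 in each library of DKO livers and their controls.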

Other observations

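Single libraries led several of the 10 genes at once. WT-7114 was the highest DKO control for 7 of them, and DKO-7137 the lowest DKO library for 7. F3 was the highest BKO library for 7 and F5-2 the highest BKO control for 6.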
